A study of Mus musculus with 6 samples.

Results

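Capillary endothelial cells of the mouse heart were picked out of 6 single-cell RNA libraries by a rule on raw UMI counts (unique molecular identifiers, each standing for 1 captured RNA molecule). A cell was taken when it had at least 1000 UMIs, at least 200 detected genes and at most 20% mitochondrial UMIs, at least 3 UMIs over the pan-endothelial genes Cdh5, Egfl7 and Esam, at least 1 of Gpihbp1, and at least 5 over Fabp4, Aqp1 and Cd36. It could hold at most 1 UMI over the arterial genes Hey1, Sema3g and Stmn2, at most 1 over the angiogenic genes Apln and Pgf, at most 1 over Col1a2 and Csf1r, and none of the endocardial gene Npr3 or the lymphatic genes Prox1 and Mmrn1. The rule found 4807 members among 34940 deposited cells, of which 30014 passed the 3 quality limits. The label was taken from these genes, so the levels of the 17 genes in the rule describe the choice and support nothing.

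The heart muscle runs on fatty acids, and its capillary endothelium is the gate through which they pass. Lipoprotein lipase is carried to the vessel lumen and held there by GPIHBP1, the fatty acids it frees are taken up through CD36 and bound by FABP4, and the transcription factors MEOX2 and TCF15 form a pair that drives these transport genes in the endothelium of the heart. Continuous capillaries of healthy heart lack the diaphragm protein PLVAP, which is found in fenestrated and in immature or inflamed vessels, and they carry the membrane carbonic anhydrase CAR4.

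The study sequenced non-cardiomyocytes of male mice aged 8 to 12 weeks that were wild-type (C57BL/6JRj, WT) or lacked the calcium-activated cation channel gene Trpm4 (B6.Cg-Trpm4tm1.2-PG, KO). Mice of both genotypes had sham surgery and were sampled at 24 h, or their left anterior descending artery of the heart was tied off, with sampling at 24 h or at 72 h, and no 72 h sham group is among the samples. Hearts were digested with thermolysin and papain, filtered through meshes and sorted for Calcein-AM-positive, DAPI-negative live cells, so a vessel type that releases poorly or dies in the digest is counted low. Each of the 6 groups is 1 library of cells pooled from 4 mice. Nothing ties a cell to its mouse, no difference has a replicate check, and no p-value was computed. Values of the 6 libraries are given in the order WT sham, KO sham, WT ligated 24 h, KO ligated 24 h, WT ligated 72 h and KO ligated 72 h.

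The members numbered 1545, 2178, 368, 444, 133 and 139. They had a median of 3243, 3363.5, 3956.5, 2801.5, 2914 and 1925 UMIs each, so the KO 72 h members were the shallowest, and they summed to 5658064, 8707145, 1619927, 1485591, 628237 and 410708 UMIs. Their median mitochondrial share was 10.6%, 10.7%, 6.94%, 7.55%, 9.44% and 4.10%. Levels are given as CPM, the counts of a gene per 1e6 UMIs summed over the members of a library, a scale that is not corrected for transcript length and serves to compare 1 gene between libraries. Ratios are log2 of 2 such levels, with the exact 95% interval for 2 Poisson counts, which covers counting error only and leaves out the spread between mice. A gene entered a comparison with at least 50 UMIs over the pair and counts as past 2-fold at a log2 ratio of at least 1 in size. Of all members, 33 had a barcode that a deposited cell of another library also carried, and no pair of libraries shared more than 1 member barcode.

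Trpm4 itself was near the limit of detection in these cells. Its UMIs numbered 58, 63, 14, 7, 2 and 2, or 10.3, 7.24, 8.64, 4.71, 3.18 and 4.87 CPM, and the KO to WT log2 ratio in sham hearts was -0.50 (95% interval -1.04 to 0.04). The gene lies at chr7:45302632-45333780 on the minus strand (GRCm38). The deposited counts come from the 3′ ends of transcripts and the deleted stretch is not given in the labels, so remaining UMIs check neither the genotype nor the labels.

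UMIs of other cell types were present among the members in all 6 libraries and differed between them. Summed over 7 neutrophil markers, all of which were detected in every library, the members held 1687, 916, 2613, 10549, 272 and 1731 CPM, highest in the KO 24 h library. Summed over 9 monocyte and macrophage markers they held 257, 415, 766, 759, 100 and 2087 CPM, highest in the KO 72 h library, where Mrc1 was at 0, while Csf1r, C1qc and Adgre1 were at 0 in the WT 72 h library. Fibroblast markers summed to between 14.3 and 117 CPM, lymphocyte markers to between 7.78 and 73.2, and mural markers to between 20.7 and 250. Cardiomyocyte markers summed to between 233 and 496 CPM, and erythroid and platelet markers to 2944, 9383, 173, 4464, 44.6 and 424 CPM. The part of this admixed RNA in each comparison is given below by leaving out members with UMIs of other types and by subtracting the profile of the whole library.

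Of the 6 markers of the label, the 2 that the rule did not use were higher in members than over the rest of each library. Timp4, an inhibitor of matrix metalloproteinases, was at 685, 903, 1098, 1240, 350 and 183 CPM, and Tcf15 at 838, 840, 595, 577, 487 and 399 CPM. Over all other kept cells of the same libraries Timp4 was between 1.03 and 133 CPM and Tcf15 between 7.09 and 166. Both were thus far above the rest of the library in each of the 6 libraries, and both were lowest at 72 h. Most cells of that rest did not meet the endothelial limits, so these values do not set members apart from arterial cells. At the arterial limit, described next, Timp4 and Tcf15 were close on both sides. The rule used the other 4 markers, of which Gpihbp1 was at 1604, 2009, 2835, 3068, 1792 and 1293 CPM and Fabp4 at 31306, 31725, 40622, 33158, 21672 and 16396 CPM.

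The edge of the rule ran through a continuum at the arterial limit. The 982 members with exactly 1 UMI over Hey1, Sema3g and Stmn2 had 726.5 CPM of Timp4 and 771 of Tcf15, and the 490 cells left out with exactly 2 had 753 and 748. At the Gpihbp1 limit the sides were farther apart: the 351 members with 1 UMI had 328.5 CPM of Timp4 and 548 of Tcf15, and the 353 cells left out with none had 98.4 and 260. At the limit on Apln and Pgf, 151 members with 1 UMI had 487 CPM of Timp4 and 54 cells left out with 2 had 246. The arterial limit alone removed 496, 781, 136, 134, 29 and 21 cells.

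Members made up a smaller share of the endothelial cells in ligated hearts than in sham hearts. Of the cells that met the endothelial limits (2415, 3286, 702, 759, 277 and 326), members were 64.0%, 66.3%, 52.4%, 58.5%, 48.0% and 42.6%, with exact 95% binomial (Clopper-Pearson) intervals of 62.0 to 65.9, 64.6 to 67.9, 48.7 to 56.2, 54.9 to 62.0, 42.0 to 54.1 and 37.2 to 48.2. The 4 ligated libraries were all below both sham libraries. The order changed when depth was made equal. With every cell thinned to 1000 UMIs before the rule was applied, the shares were 65.3%, 74.2%, 71.1%, 70.9%, 61.2% and 46.0%. The 24 h libraries were then between the sham libraries. Thinning acts on the lower and the upper limits and on the endothelial cells counted (1722, 2445, 509, 529, 170 and 187). The part of each limit in the new order was not tested. The KO 72 h library was lowest with all UMIs and after thinning.

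Over the same endothelial cells, those removed as angiogenic, with more than 1 UMI of Apln and Pgf, were 1.82%, 1.92%, 13.7%, 10.7%, 18.4% and 8.59%. Cells removed as arterial were 23.1%, 25.4%, 20.5%, 18.6%, 13.7% and 8.28%. As a share of all kept cells, members were 29.0%, 37.4%, 11.5%, 6.59%, 3.02% and 3.08%. These last shares depend on how many leukocytes a library holds, and fewer capillary cells cannot be told apart from more of the others.

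**Figure D1:**
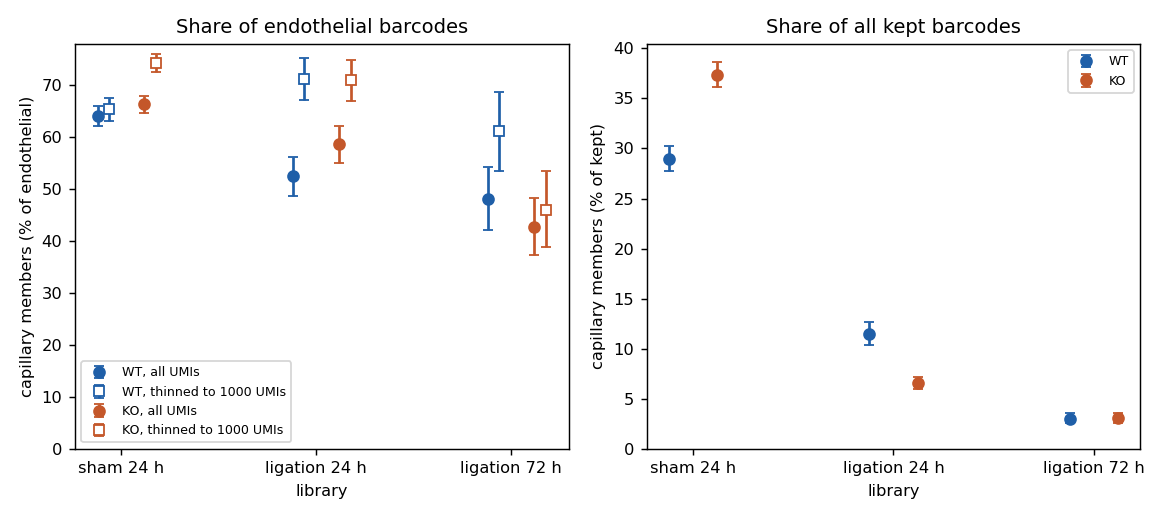
Members as a share of endothelial cells with all UMIs used and with cells thinned to 1000 UMIs, and as a share of all kept cells, for each of the 6 libraries; bars are exact 95% binomial intervals for counting error. With all UMIs the share of endothelial cells goes from 64.0% and 66.3% in the sham libraries to 48.0% and 42.6% at 72 h, and after thinning the 24 h libraries are at 71.1% and 70.9%.

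Set against the other endothelial cells of their library, members held more RNA of the genes of lipid handling and of the capillary surface, which is given as a description because the cells were chosen on such genes. The gene with the largest smallest difference over the 6 libraries was Car4, with log2 ratios from 0.84 to 3.26 and a median of 1.45. Timp4 had ratios from 0.80 to 4.36, Lpl, the lipase that frees fatty acids, from 0.68 to 2.83, Xdh, xanthine dehydrogenase, from 0.74 to 2.89, and the cyclic nucleotide phosphodiesterase Pde2a from 0.75 to 1.18. C1qtnf9, Fmo1, Gm12002, Rgcc and Adgrl4 followed, with median log2 ratios between 0.97 and 1.44.

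On the other side, the matrix Gla protein gene Mgp was lower in members, with a median log2 ratio of -3.82. The arterial connexin gene Gja4 was at -3.79, the pericyte gene Rgs5 at -3.96 and the contractile gene Tagln at -5.22. Of the genes compared, 0 were at least 2-fold higher in all 6 libraries and 98 (1.54%) at least 2-fold lower in all 6, while 503 (7.9%) were higher and 1427 (22.4%) lower in all 6 at any size. The rule removes cells on genes of this kind, so nothing is read from that count.

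At 24 h after ligation the cell cycle inhibitor gene Cdkn1a, which codes for p21, was higher in both genotypes, with few genes past 2-fold. Cdkn1a was at 92.3, 259, 748, 599, 199 and 163 CPM. The log2 ratio to sham was 3.02 (2.87 to 3.17) in WT and 1.21 (1.10 to 1.32) in KO, where the sham level was already higher. Both 24 h libraries were above all 4 others. In WT, 392 of 8988 genes were past 2-fold between 24 h and sham (4.36%, with 2.07% higher), and in KO 587 of 9590 (6.12%, with 3.71% higher). Of these, 57 were at least 2-fold higher in both genotypes, which is 31.5% of the WT genes and 22.0% of the KO genes that were higher, and 0.637% of the genes tested in both. Another 26 (0.291%) were at least 2-fold lower in both, 13.3% of the WT and 15.1% of the KO genes that were lower.

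Aplnr, the apelin receptor, which takes part in sprouting and in the vessel's response to flow, went the other way. It was at 194, 167, 66.7, 82.8, 349 and 253 CPM, lowest in both 24 h libraries and highest in both 72 h libraries. The 24 h to sham log2 ratio was -1.54 (-1.84 to -1.26) in WT and -1.01 (-1.29 to -0.74) in KO, and the KO ratio stayed under 2-fold in size in 5 of 10 alternative settings. Hbb-bs, a beta globin gene of red cells, was also lower in both 24 h libraries by the rule for named genes, at 1866, 5752, 3.70, 2540, 7.96 and 14.6 CPM. Of its UMIs in the KO 24 h library, 3763 came from 1 cell: the ratio was -8.98 in WT and -1.18 in KO, and -9.59 in KO with the top cell of each library left out.

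The immediate early genes, which are switched on within minutes by stress and also by tissue digestion, were higher at 24 h. Of 17 genes on the list, 13 were tested in WT, with a median log2 ratio of 0.56 against 0.03 over all genes, and 12 of the 13 were higher, Fos, Egr1 and Atf3 past 2-fold. In KO 14 were tested, all 14 were higher and 7 were past 2-fold, with a median of 1.01 against -0.01 over all genes. Fos was at 34.3, 56.8, 82.7, 147, 65.3 and 161 CPM and Egr1 at 31.8, 34.0, 79.0, 70.7, 86.0 and 112 CPM. In the KO 24 h library neutrophil markers were also highest, and without the members that held UMIs of other types the KO median was 0.25. With the library's overall profile subtracted it was -0.25. Over all alternatives the WT median ranged from 0.39 to 0.73.

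Genes of stress and growth shared the 24 h pattern in part. For the list of glucocorticoid and stress genes the median was 0.51 in WT (16 of 17 tested, 2 past 2-fold higher and 1 lower) and 0.74 in KO (16 tested, 5 higher and 1 lower). The KO median of the list was 0.37 without the members that held UMIs of other types and 0.09 with the library profile subtracted. Over all genes at 24 h against sham, 2.07% were past 2-fold higher and 2.29% lower in WT, with a median of 0.03. In KO 3.71% were higher and 2.41% lower, with a median of -0.01. The same shares stand beside the other lists at 24 h. Fkbp5, a target of the glucocorticoid receptor, was at 13.1, 13.7, 50.6, 26.9, 19.1 and 21.9 CPM. For ribosome assembly and translation, 13 of 14 genes were tested, all 13 were higher in WT with a median of 0.57, and 11 of 13 in KO with a median of 0.43. Nop58, a nucleolar protein gene, was at 30.6, 28.7, 67.3, 52.5, 55.7 and 34.1 CPM.

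Hypoxia and glycolysis genes had a median of 0.28 in WT (17 of 19 tested, 1 past 2-fold) and 0.69 in KO (18 tested, 4 past 2-fold). Slc2a1, the glucose transporter GLUT1, was at 8.31, 9.53, 17.3, 32.3, 17.5 and 9.74 CPM. The KO median was -0.02 with the library profile subtracted. Genes of NF-kB feedback had a median of 0.12 in WT (11 of 12 tested, none past 2-fold) and 0.80 in KO (12 tested, 5 past 2-fold higher), and the KO value was 0.16 without the members that held UMIs of other types. With the library profile subtracted the KO value for NF-kB feedback was 0.30. Leaving out the members that held UMIs of other types moved the KO hypoxia median by no more than the typical counting error of a single gene on the list. The counting error of the median itself was not computed.

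The median of the capillary list at 24 h was close to that of all genes. Members must hold Gpihbp1 and at least 5 UMIs over Fabp4, Aqp1 and Cd36. A cell that lost capillary identity could thus drop out of the count, and a loss of identity cannot be read from these values. The 11 tested genes of the capillary list, without the 4 used in the rule, had a median of 0.03 in WT and 0.01 in KO, with Car4 alone past 2-fold, in WT. Single genes of the list went either way. In WT, 5 of the 11 had an interval wholly on the higher side and 5 on the lower. In KO these were 4 and 3. Car4 was at 416, 566, 914, 742, 215 and 168 CPM. Tcf15 was lower at 24 h, with log2 ratios of -0.49 (-0.60 to -0.39) in WT and -0.54 (-0.65 to -0.44) in KO. The fatty acid uptake and use list had a median of 0.33 in WT and -0.08 in KO, where 5 of 13 tested genes were higher and 8 lower. Angptl4 on that list, an inhibitor of lipoprotein lipase, was at 29.2, 35.5, 133, 84.1, 52.5 and 58.4 CPM, and Rbp7, a retinol-binding protein gene, at 378, 472, 830, 860, 221 and 222 CPM. Cldn5, the tight junction claudin of endothelium, was at 392, 542, 933, 681, 498 and 365 CPM.

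Of the chemokines and cytokines, 9 of 14 genes were tested in WT at 24 h against sham, 8 were higher and 3 of them past 2-fold (Cxcl2, Ccl2 and Ccl7), with a median of 0.55 and a range over the alternatives of 0.45 to 0.76. In KO 10 were tested, 6 higher and 4 lower, with a median of 0.27. The neutrophil attractant gene Cxcl2 was at 182, 140, 487, 1030, 145 and 334 CPM in members, and at 1860, 1308, 6295, 5705, 616 and 1022 CPM over the other cells of the same libraries. Of the leukocyte adhesion list, 9 of 12 genes were tested in WT with a median of 0.07, and Icam1, the ligand of leukocyte integrins, was at 41.7, 43.0, 82.1, 34.3, 47.8 and 43.8 CPM, highest in the WT 24 h library. Edn1, the precursor of the vasoconstrictor endothelin, was at 16.1, 70.7, 100, 56.5, 12.7 and 19.5 CPM, lowest in the WT sham library among the sham and 24 h libraries. Of the VEGF and angiopoietin list 13 of 16 genes were tested, with a median of -0.16 in WT, where 10 were lower, and of -0.07 in KO, where 9 were lower and Angpt2 alone was past 2-fold, higher. Kdr, the main VEGF receptor gene, was at 860, 853, 772, 814, 860 and 621 CPM, with 24 h to sham log2 ratios of -0.16 (-0.25 to -0.07) in WT and -0.07 (-0.16 to 0.02) in KO.

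**Figure D2:**
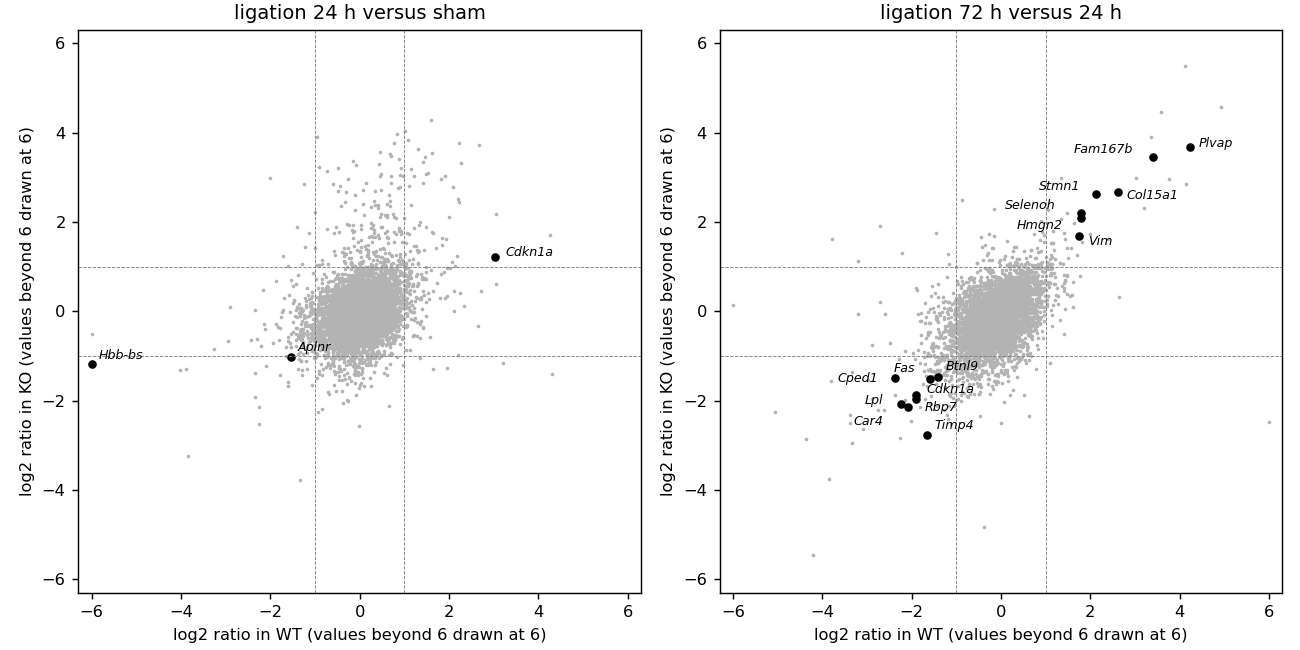
Log2 ratios of single genes in WT on the horizontal axis and in KO on the vertical axis, for 24 h against sham and for 72 h against 24 h, with dashed lines at 2-fold. At 24 h against sham Cdkn1a lies at 3.02 and 1.21, and at 72 h against 24 h Plvap lies at 4.23 and 3.68 while Car4 and Lpl lie below -2.

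Between 24 h and 72 h the members of both genotypes held less RNA of capillary and lipid genes and more of Plvap, of the collagen genes Col15a1 and Col18a1 and of growth genes such as Stmn1. These ratios share the 24 h libraries with the ratios to sham. In WT, 536 of 5688 genes were past 2-fold (9.42%, made up of 2.43% higher and 7% lower), and in KO 565 of 4981 (11.3%, made up of 3.15% higher and 8.19% lower). Of the genes tested in both genotypes, 51 (1.06%) were past 2-fold higher in both, which is 49.0% of the WT and 38.6% of the KO genes that were higher, and 120 (2.5%) were lower in both, 39.7% and 33.7%. The 72 h values rest on 133 and 139 cells.

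Plvap, the gene of the diaphragm protein, was at 12.2, 11.5, 21.6, 23.6, 406 and 302 CPM. Its 72 h to 24 h log2 ratio was 4.23 (3.72 to 4.79) in WT and 3.68 (3.13 to 4.26) in KO. Both 72 h libraries were far above the 4 others. At 24 h the summed Plvap level was above sham, with a log2 ratio of 1.04 (0.44 to 1.61) in KO members and 0.83 (0.19 to 1.43) in those of WT. These ratios rest on 35 UMIs in 15 KO cells and 35 UMIs in 11 WT cells at 24 h. In WT, 1 cell held a larger share of the Plvap UMIs at 24 h than at 72 h. The thinned share of members with a Plvap UMI, given below, was lower than in sham in WT and higher in KO.

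A pair of collagen genes of the vessel wall was also higher at 72 h. Col15a1, a basement membrane collagen, was at 57.1, 45.0, 48.2, 30.3, 294 and 192 CPM, and Col18a1, the collagen that endostatin is cut from, at 12.0, 11.5, 12.3, 12.1, 167 and 94.96 CPM. Both were highest in the 72 h libraries of either genotype. Most of these 72 h UMIs were in the members with a Plvap UMI, 17 in WT and 27 in KO. They held 141 and 62 UMIs of Col15a1, against 44 and 17 in the other members. For Col18a1 they held 89 and 33, against 16 and 6. In members without a Plvap UMI Col15a1 was at 41.1 and 28.7 CPM at 24 h and at 119 and 67.3 at 72 h. Col18a1 was at 9.12 and 12.2 and then at 43.3 and 23.8. Of the 18 matrix genes all were tested in WT, 4 were past 2-fold higher (Lamb1, Nid2, Col15a1 and Col18a1) and 2 lower (Timp3 and Timp4), with a median of 0.31 against -0.08 over all genes. In KO 17 were tested, 3 were past 2-fold higher (Fn1, Col15a1 and Col18a1) and 3 lower, with a median of 0.02. The summed level of the list went from 8811 to 10337 CPM in WT and from 8095 to 7046 CPM in KO between 24 h and 72 h.

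Vim, the intermediate filament gene, was at 1275, 1303, 1203, 1309, 4048 and 4188 CPM, with 72 h to 24 h log2 ratios of 1.75 (1.66 to 1.84) in WT and 1.68 (1.58 to 1.77) in KO. Ehd4, a gene of endocytic recycling at the membrane, was at 51.4, 52.1, 63.0, 55.2, 178 and 127 CPM, and Fam167b at 15.6, 12.2, 17.3, 12.8, 183 and 141 CPM. Vwf, the von Willebrand factor gene, usually higher in veins than in capillaries, was at 19.3, 25.0, 17.3, 24.2, 60.5 and 70.6 CPM. All 4 were highest in the 72 h libraries of both genotypes. At 72 h, members with a Plvap UMI held 96 and 42 Fam167b UMIs in WT and KO, against 19 and 16 in the rest. For Vwf they held 36 and 18, against 2 and 11, and for Vim 1697 and 1014, against 846 and 706. In members without a Plvap UMI Fam167b was at 16.9 and 10.8 CPM at 24 h and at 51.5 and 63.3 at 72 h. Vwf was at 13.0 and 6.45 there and then at 5.42 and 43.5.

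Genes of growth and division were higher at 72 h. Stmn1, which codes for the microtubule regulator stathmin, was at 106, 133, 74.7, 70.0, 328 and 433 CPM, and the chromatin protein gene Hmgn2 at 66.5, 57.2, 60.5, 70.7, 210 and 299 CPM. Selenoh, a nucleolar selenoprotein gene, was at 63.4, 65.3, 62.3, 50.5, 215 and 234 CPM. Of the 16 genes of the proliferation list only 6 reached the count minimum in WT and 4 in KO, with medians of 1.25 and 1.26. Stmn1, Pcna and Tyms were past 2-fold higher in both genotypes. Genes of that list that fell under the minimum in a genotype were not compared there.

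Few members were dividing by this measure. After each cell was thinned to 1000 UMIs, 0, 3, 0, 0, 6 and 7 members had at least 2 UMIs over 8 G2/M genes, which is 4.51% (1.67 to 9.56) of the WT and 5.04% (2.05 to 10.1) of the KO members at 72 h. Without thinning and with at least 3 UMIs they were 1, 9, 0, 1, 9 and 12 cells. The 72 h libraries were the only ones above 1% by either count, on 6 to 12 cells each.

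The capillary program was lower at 72 h. Car4 had 72 h to 24 h log2 ratios of -2.09 (-2.35 to -1.83) in WT and -2.14 (-2.52 to -1.79) in KO, which put it below its sham level in both genotypes. Lpl was at 698, 789, 1112, 887, 234 and 209 CPM, with ratios of -2.25 (-2.50 to -2.01) and -2.08 (-2.41 to -1.77). Timp4 had ratios of -1.65 (-1.86 to -1.45) in WT and -2.76 (-3.12 to -2.43) in KO. These genes were lowest in the 72 h libraries and highest at 24 h.

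Of the 11 tested capillary genes, 9 were lower in WT and 11 in KO, with medians of -0.74 and -1.25 against -0.08 and -0.10 over all genes. Past 2-fold lower in both were Timp4, Car4, Btnl9, a butyrophilin-like gene of capillaries, and Ly6c1. Btnl9 was under 2-fold in size in WT in 2 of 10 alternative settings, with a log2 ratio of -0.63 at the least. In KO the mucin-like receptor gene Cd300lg, the monoacylglycerol lipase gene Mgll and Slc9a3r2 were past 2-fold lower as well. Kdr and Meox2 were the exceptions in WT: the 72 h to 24 h log2 ratio was 0.15 (0.01 to 0.30) for Kdr and 0.03 (-0.30 to 0.35) for Meox2. Whether the genotypes differ there was not tested.

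Among genes for the uptake and use of fatty acids, 12 of 20 were tested in WT, with a median of -0.48 and 4 past 2-fold lower: Lpl, Plin2, Angptl4 and Pparg, the lipid-sensing receptor. In KO 11 were tested, with a median of -0.51, and Lpl and Pparg were past 2-fold lower. Pparg was at 94.6, 115, 120, 90.9, 55.7 and 29.2 CPM. Genes of oxidative phosphorylation did not share this: none of 20 was past 2-fold in either genotype, with medians of 0.19 and 0.21. The lipid genes were thus lower while the nuclear genes of the respiratory chain were not.

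Stress genes that had been higher at 24 h were lower again. The glucocorticoid and stress list had a median of -0.94 in WT, with 6 of 12 tested genes past 2-fold lower, and -0.99 in KO, with 5 of 10. Cdkn1a had a 72 h to 24 h ratio of -1.91 (-2.19 to -1.64) in WT and -1.88 (-2.26 to -1.52) in KO. Fas, a death receptor gene that p53 also activates, was at 81.3, 98.1, 140, 112, 46.2 and 39.0 CPM. Flow-responsive genes were lower in part: S1pr1, the sphingosine phosphate receptor that tightens the barrier, was at 432, 605, 681, 585, 299 and 239 CPM.

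**Figure D3:**
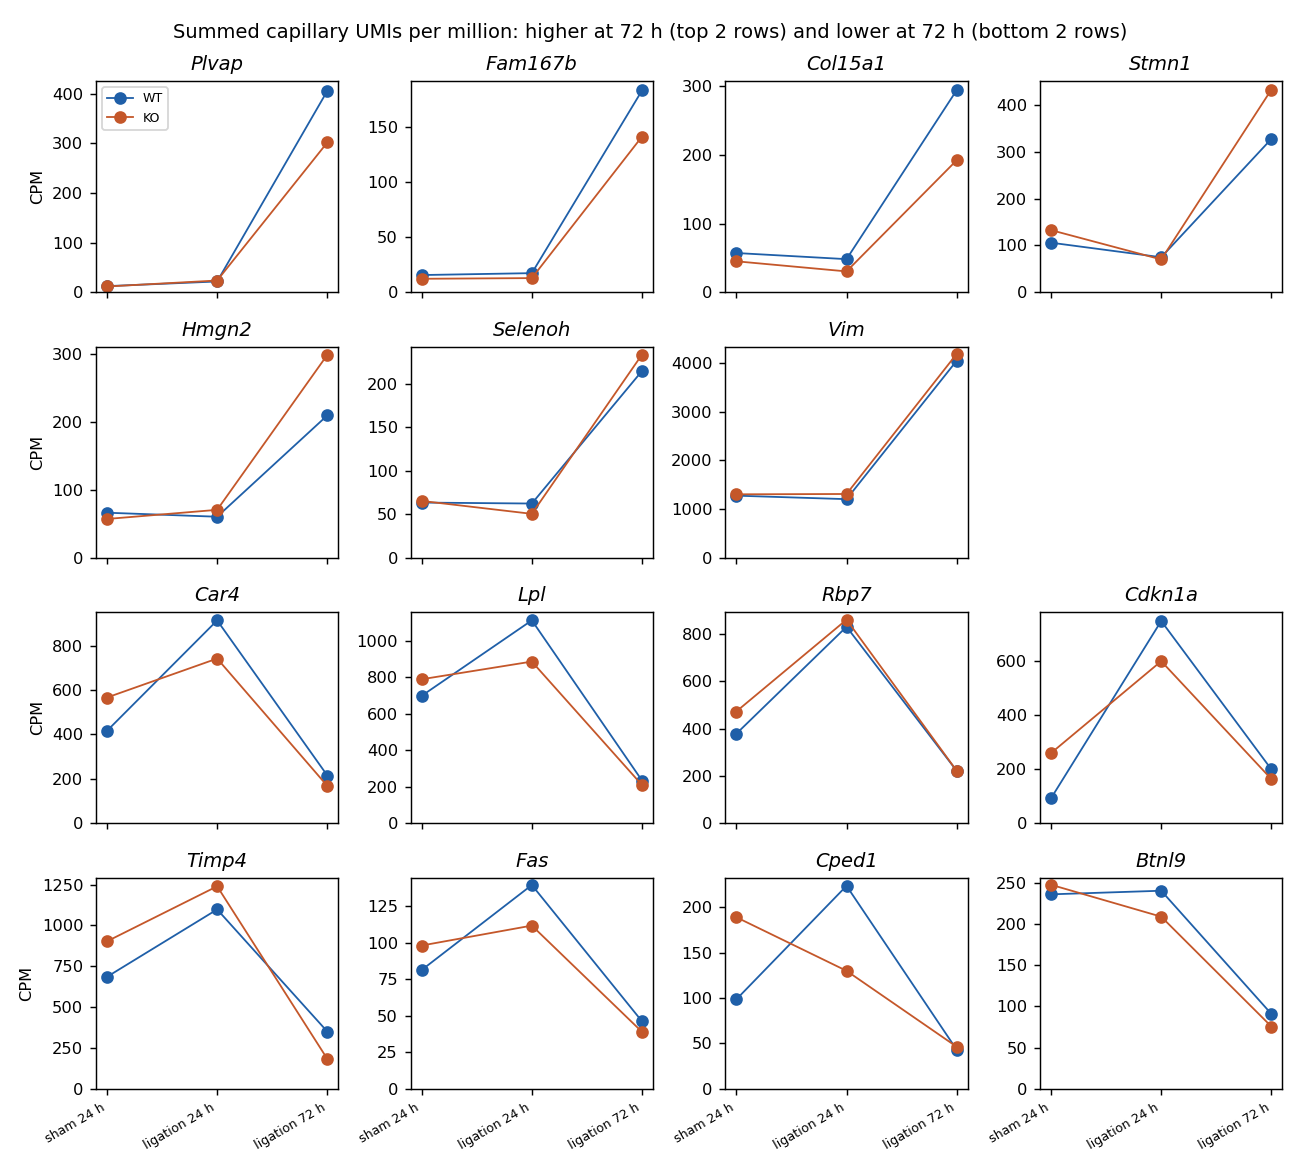
CPM of 15 genes in the members of the sham, 24 h and 72 h libraries of each genotype, on linear axes that start at 0. The 7 genes named as higher at 72 h, such as Plvap (406 and 302 CPM) and Vim (4048 and 4188), peak there in both genotypes, and of the 8 named as lower, those such as Car4 (215 and 168) and Lpl (234 and 209) are at their lowest there, except Cdkn1a, which in WT is lowest in sham (92.3 CPM against 199 at 72 h).

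The Plvap UMIs at 72 h were held by a minority of members. Members with a Plvap UMI were 2.3%, 2.4%, 3.0%, 3.4%, 12.8% and 19.4%, and in cells thinned to 1000 UMIs 0.91%, 0.69%, 0.82%, 0.90%, 6.77% and 9.35%. In cells with at least 20 UMIs of the neutrophil genes S100a8 and S100a9, which should lack Plvap and had medians of 2288 and 2057 UMIs at 72 h, the thinned share was 0.13% and 0.38%. Thinned shares in both 72 h libraries were thus above those of the sham and 24 h libraries and above the background.

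The cells with a Plvap UMI were large in WT, where 17 cells had a median of 14845 UMIs against 2521 in the other 116, and less so in KO, where 27 cells had 2614 against 1848.5 in 112. They held 259134 of the members' UMIs at 72 h in WT, against 369103 in the rest. The 1 cell with the most Plvap UMIs held 16% of them in WT and 40% in KO. With that cell left out of each library, a setting chosen after the values were seen, the 72 h to 24 h log2 ratio of Plvap was 5.05 in WT and 3.26 in KO.

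The lower capillary levels were not confined to those cells. In members with no Plvap UMI, Car4 was at 945 and 769.5 CPM at 24 h and at 317 and 261 at 72 h, in WT and KO. Lpl was at 1163 and 914 CPM and then 371 and 321, and Timp4 at 1145 and 1281 and then 588 and 297. In the Plvap-positive members of the 72 h libraries Timp4 had 3 UMIs in WT and none in KO. Depth was much higher in the Plvap-positive WT cells, and its part in this split was not tested.

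Markers of the endocardium, which also expresses Plvap, were measured beside it. Without Plvap, the 5 other endocardial markers summed to 39.6 and 40.0 CPM in the sham members. At 72 h they summed to 44.6 and 17.0 CPM, near the sham sums or below them. In cells with the endocardial marker Npr3 they summed to 1143 to 4048 CPM. Npr3 is among the 5 and members lack it by the rule, so that gap was partly fixed in advance. The 6 angiogenic markers other than Plvap summed to 130, 106, 145, 158, 153 and 144 CPM in members. Apln and Pgf are among the 6 and the rule limits both in members, so these sums partly describe the choice.

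Arterial cells of the same libraries gave values of the same sign for the genes given here, except for Plvap in KO at 24 h. In the cells removed by the arterial limit (144 and 38 in WT at 24 h and 72 h, 141 and 27 in KO), the 72 h to 24 h log2 ratio was -3.61 in WT and -2.87 in KO for Car4, and -3.73 and -2.10 for Lpl. Plvap was at 4.13 in WT and fell under the count minimum in KO. At 24 h against sham, in WT and KO, Cdkn1a was at 3.21 and 1.20 and Aplnr at -1.46 and -2.21. Plvap over that step was at 0.75 in WT and at -2.09 in KO, on 3 UMIs at 24 h and 98 in sham. The changes in Car4, Lpl, Cdkn1a and Aplnr were thus not seen in members alone, and a difference between the classes was not tested.

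The genotypes differed most in the sham hearts in genes of the circadian clock and of heat shock. Of 10177 genes, 176 (1.73%) were past 2-fold between KO and WT sham (1.07% higher and 0.658% lower in KO), the lowest share of the 7 comparisons. Of the 16 clock genes 15 were tested, 10 were past 2-fold lower in KO and 2 higher, with a median log2 ratio of -1.19 against -0.05 over all genes. The range of that median over the alternative settings was -1.26 to -1.01.

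Dbp, a clock output factor of the PAR bZIP family, was at 347, 44.1, 24.1, 4.71, 46.2 and 48.7 CPM, and the KO to WT ratio in sham was -2.98 (-3.14 to -2.82). Its relatives Tef and Hlf were at 91.6, 30.4, 17.9, 8.08, 17.5 and 9.74 CPM and at 35.3, 2.53, 1.23, 2.02, 1.59 and 2.43 CPM. Per3, a period gene, was at 78.6, 21.0, 15.4, 8.08, 14.3 and 21.9 CPM, and Nr1d1, which codes for the repressor REV-ERB alpha, at 188, 92.5, 54.3, 34.3, 36.6 and 39.0 CPM. All of these were highest in the WT sham library. Arntl, which codes for the activator BMAL1 and cycles in the opposite phase, was at 5.83, 23.5, 25.3, 23.6, 12.7 and 4.87 CPM, and it was among the lowest there.

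The same WT sham library is the base of the WT ratios at 24 h, where 7 of 13 tested clock genes were past 2-fold lower. In KO, from a lower base, 5 of 11 were. The hour at which the hearts were taken is not in the labels, and genotype, time of day and library cannot be told apart. Cells removed by the arterial limit in the sham libraries had a KO to WT log2 ratio of -2.58 for Dbp, so the difference was not in members alone. The clock promoters of 3 of these genes are shown because they carry the hexamer CACGTG bound by BMAL1 and CLOCK (Tef and Ciart) or the site TTATGTAA bound by the PAR bZIP factors and NFIL3 (Per3). They are RefSeq sequence of GRCm38.p6 with the match in capitals, read 5′ to 3′ on the strand of the gene.
Tef, chr15:81802516-81802581, plus strand: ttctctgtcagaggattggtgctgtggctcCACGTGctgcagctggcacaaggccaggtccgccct
Ciart, chr3:95882309-95882374, minus strand: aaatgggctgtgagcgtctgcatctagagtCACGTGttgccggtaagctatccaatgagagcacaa
Per3, chr4:151044833-151044900, minus strand: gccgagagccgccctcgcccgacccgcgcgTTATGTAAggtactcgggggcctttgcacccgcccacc
The matches start 127, 116 and 205 bases before the transcript start. The 250 bases before each start were searched on both strands. CACGTG was found in 5 of the 15 clock genes with a promoter in the table and in 1978 of 32851 promoters (6.02%). TTATGTAA was found in 1 of 15 and in 269 promoters (0.819%). A match describes the letters and is no evidence of binding.

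Heat shock genes were higher in the KO sham members. All 12 genes were tested and all 12 were higher, 3 of them past 2-fold (Hspa1a, Hspa1b and Hsph1), with a median of 0.84 and a range over the alternatives of 0.76 to 0.93. Over all genes 1.07% were past 2-fold higher in KO sham, with a median of -0.05. Hspa8, the constitutive chaperone, was at 722, 1308, 1334, 1123, 1302 and 981 CPM, lowest in the WT sham library. Hspa1a was at 6.89, 21.1, 26.5, 8.75, 22.3 and 14.6 CPM. Hspa1a and Hspa1b are near-identical copies whose reads can be split between them, so each value is uncertain. In WT the list was higher at 24 h than in sham (median 0.62, 11 of 12 higher) and in KO lower (median -0.18, 10 of 12 lower), and both rest on the same sham libraries.

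Other genes apart in sham were Cdkn1a, with a KO to WT ratio of 1.49 (1.35 to 1.63), and Gstt2, a glutathione transferase gene, at 173 and 76.3 CPM, with a ratio of -1.18 (-1.33 to -1.04). Myl2, a cardiomyocyte myosin light chain, was at 70.3 and 149 CPM, and its ratio of 1.09 was 0.87 without the 1 cell that held the most and 0.49 without the 10% of members with the most UMIs. It was below 2-fold in 3 of 10 alternative settings. Hbb-bs had a ratio of 1.62, which was 0.44 without the 10% of members with the most UMIs. The cardiomyocyte and the erythroid markers were both higher in the KO sham members.

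At 24 h after ligation, 239 of 6710 genes (3.56%) were past 2-fold between KO and WT, 158 higher (2.35%) and 81 lower (1.21%) in KO. That split turned to 34 higher and 138 lower when the library profile was subtracted, and to 51 and 93 without the members that held UMIs of other types. Named by rule were Fkbp4, a co-chaperone of steroid receptors, at 53.7 and 117 CPM with a ratio of 1.12 (0.75 to 1.51), and Ankrd1, a stress gene of muscle, at 22.8 and 108 CPM, whose ratio of 2.24 was 1.02 without the 1 cell that held 59% of the KO UMIs. Lower in KO were the RNA-binding protein genes Hnrnpa0, at 206 and 92.9 CPM, and Rbm3, a cold-induced gene, at 422 and 210 CPM. Klf4, a transcription factor induced by laminar flow, was at 229, 285, 400, 198, 150 and 114 CPM, and its ratio was -1.02 (-1.22 to -0.81). Klf4 stayed under 2-fold in size in 6 of 10 alternative settings and Rbm3 in 5 of 10. The chemokine Cxcl9, which attracts T cells, had a ratio of -1.90, which was -1.09 without the 1 cell that held 47% of the WT UMIs.

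At 72 h the interferon-induced genes were lower in KO than in WT members. Of 3027 genes, 133 (4.39%) were past 2-fold, 67 higher (2.21%) and 66 lower (2.18%) in KO. Of the 24 interferon-induced genes 20 were tested, all 20 were lower in KO, 7 of them past 2-fold, and 17 had an interval that lay below 0. The median was -0.81 against -0.08 over all genes, with a range over the alternatives from -1.06 to -0.59.

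Irf7, the transcription factor that amplifies the interferon response, was at 71.4, 73.2, 66.7, 57.2, 186 and 75.5 CPM, and the KO to WT ratio at 72 h was -1.30 (-1.92 to -0.72). Ifit3, whose product binds viral RNA complexes, was at 62.2, 44.4, 54.3, 39.7, 140 and 58.4 CPM, and Rsad2, which codes for the antiviral enzyme viperin, at 188, 249, 146, 173, 255 and 102 CPM. Irf7 and Ifit3 were high in the WT 72 h library alone, and Rsad2 was lowest in the KO 72 h library. Bst2, which codes for the membrane tether tetherin, was at 730, 641, 438, 613, 1175 and 633 CPM and Gbp3, a guanylate-binding protein gene, at 41.5, 33.2, 29.0, 28.3, 87.5 and 36.5 CPM.

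From 24 h to 72 h the same list had a median of 0.65 in WT, where 21 of 23 tested genes were higher and 7 past 2-fold (Ifit2, Ifit3, Ifit3b, Irf7, Gbp3, Bst2 and Rtp4), and of 0.08 in KO, where 12 of 22 were higher and none was past 2-fold. Ifit3 and Ifit3b are close copies, so their values are uncertain as single genes. Over the other kept cells of the libraries Irf7 was at 58.4 and 251 CPM in WT at 24 h and 72 h, and at 58.3 and 118 in KO. The members shared that order with the rest of their libraries.

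The WT 72 h members varied most among themselves in this list. In cells thinned to 1000 UMIs the 24 genes gave a mean of 6.00, 5.58, 5.73, 5.70, 10.2 and 6.60 UMIs a cell, and a variance over mean (Fano factor) of 3.25, 2.91, 2.51, 2.74, 8.80 and 3.30. Members with at least 10 such UMIs were 14.4%, 10.6%, 12.0%, 14.9%, 42.1% and 20.1%. The WT 72 h library thus held both more interferon-induced RNA and more uneven amounts of it than the 5 others.

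The promoters of 4 genes of this list that were past 2-fold lower in KO at 72 h (Ifit1, Ifit3, Rsad2 and Gbp3) hold the core of the interferon-stimulated response element on 1 strand or the other: GAAA, then 2 bases of any kind, then GAAA again, which reads TTTC, 2 bases and TTTC on the opposite strand. They are shown from RefSeq, GRCm38.p6, on the strand of the gene and 5′ to 3′, with 1 match of each in capitals.
Ifit1, chr19:34640755-34640824, plus strand: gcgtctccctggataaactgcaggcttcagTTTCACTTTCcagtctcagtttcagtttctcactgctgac
Ifit3, chr19:34583377-34583446, plus strand: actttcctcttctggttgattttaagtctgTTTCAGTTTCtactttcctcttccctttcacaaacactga
Rsad2, chr12:26456533-26456602, minus strand: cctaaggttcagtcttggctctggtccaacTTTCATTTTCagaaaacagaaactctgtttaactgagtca
Gbp3, chr3:142559969-142560038, plus strand: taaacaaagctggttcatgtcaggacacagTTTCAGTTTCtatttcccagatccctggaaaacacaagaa
The capitals start 104, 122, 120 and 45 bases before the transcript start. Counting overlapping matches once per promoter, the motif was found in 12 of the 18 genes of the list with a promoter in the table and in 978 of 32851 promoters (2.98%). As above, this describes the letters only.

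**Figure D4:**
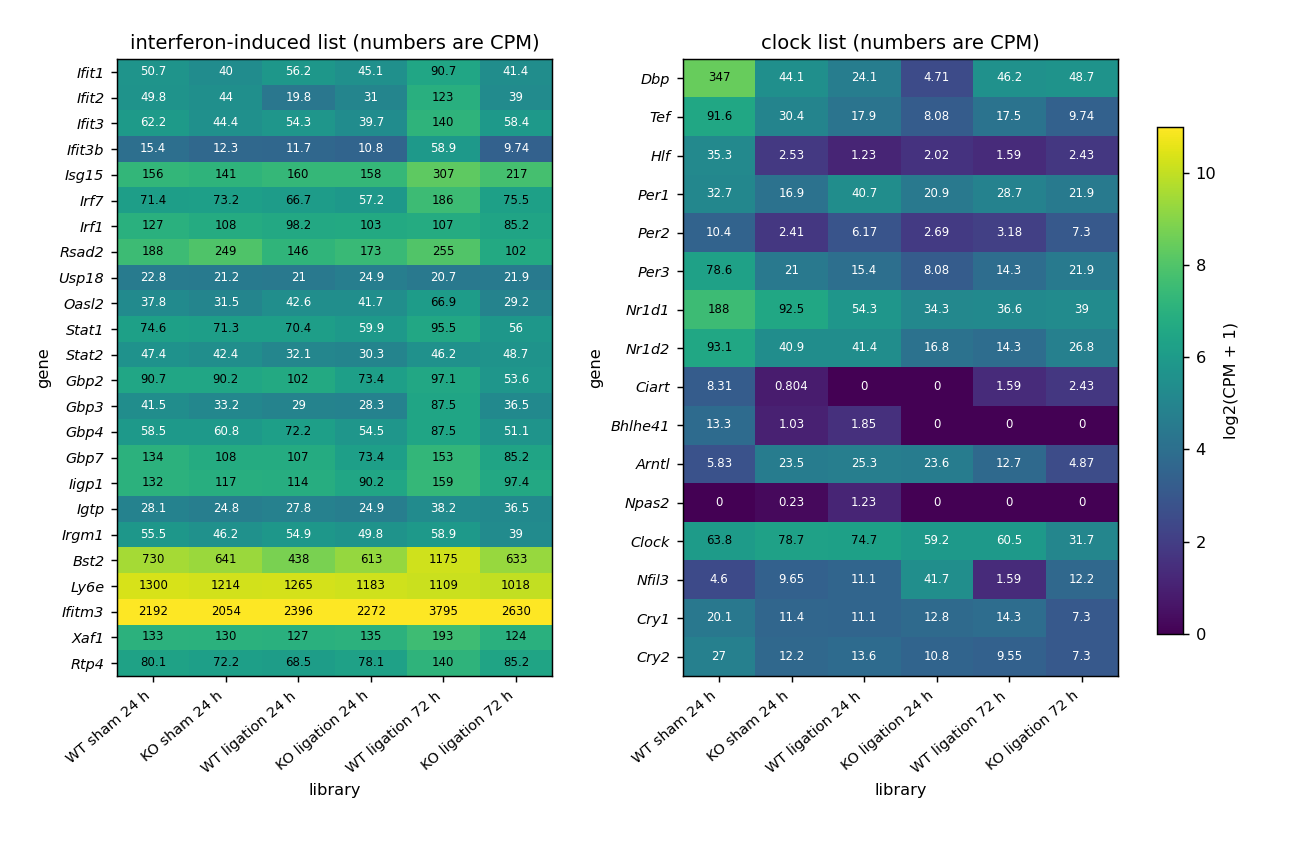
CPM of the interferon-induced genes and of the clock genes in the members of each of the 6 libraries, shown as a heat map. The WT 72 h column is highest for most interferon-induced genes, for example Irf7 at 186 CPM against 75.5 in KO, and the WT sham column is highest for Dbp, Tef, Hlf, Per3 and Nr1d1.

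Capillary genes were also lower in KO at 72 h, all 11 of 11 tested, with a median of -0.42 and none past 2-fold. The median was 0.01 when the library profile was subtracted. The profile took up 33.5% of the KO and 5.15% of the WT members' UMIs at 72 h, by the share of neutrophil genes S100a8 and S100a9, and monocyte and macrophage markers were highest in the KO 72 h members. The interferon median under that subtraction was -0.69. Among the genes higher in KO at 72 h, Clu, the chaperone clusterin, was at 43.0 and 166 CPM with a ratio of 1.95 (1.28 to 2.65). Il1b was at 186 and 553 CPM. After thinning 27.3% of KO members had an Il1b UMI, against 34.8% of the Col1a2-positive fibroblast cells of that library. Whether the members themselves expressed Il1b was not tested. Lower in KO were Tap2, a peptide transporter of antigen presentation, at 116 and 41.4 CPM, and Cyp4b1, a cytochrome P450 gene, at 186.8, 220, 254, 252, 116 and 43.8 CPM.

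**Figure D5:**
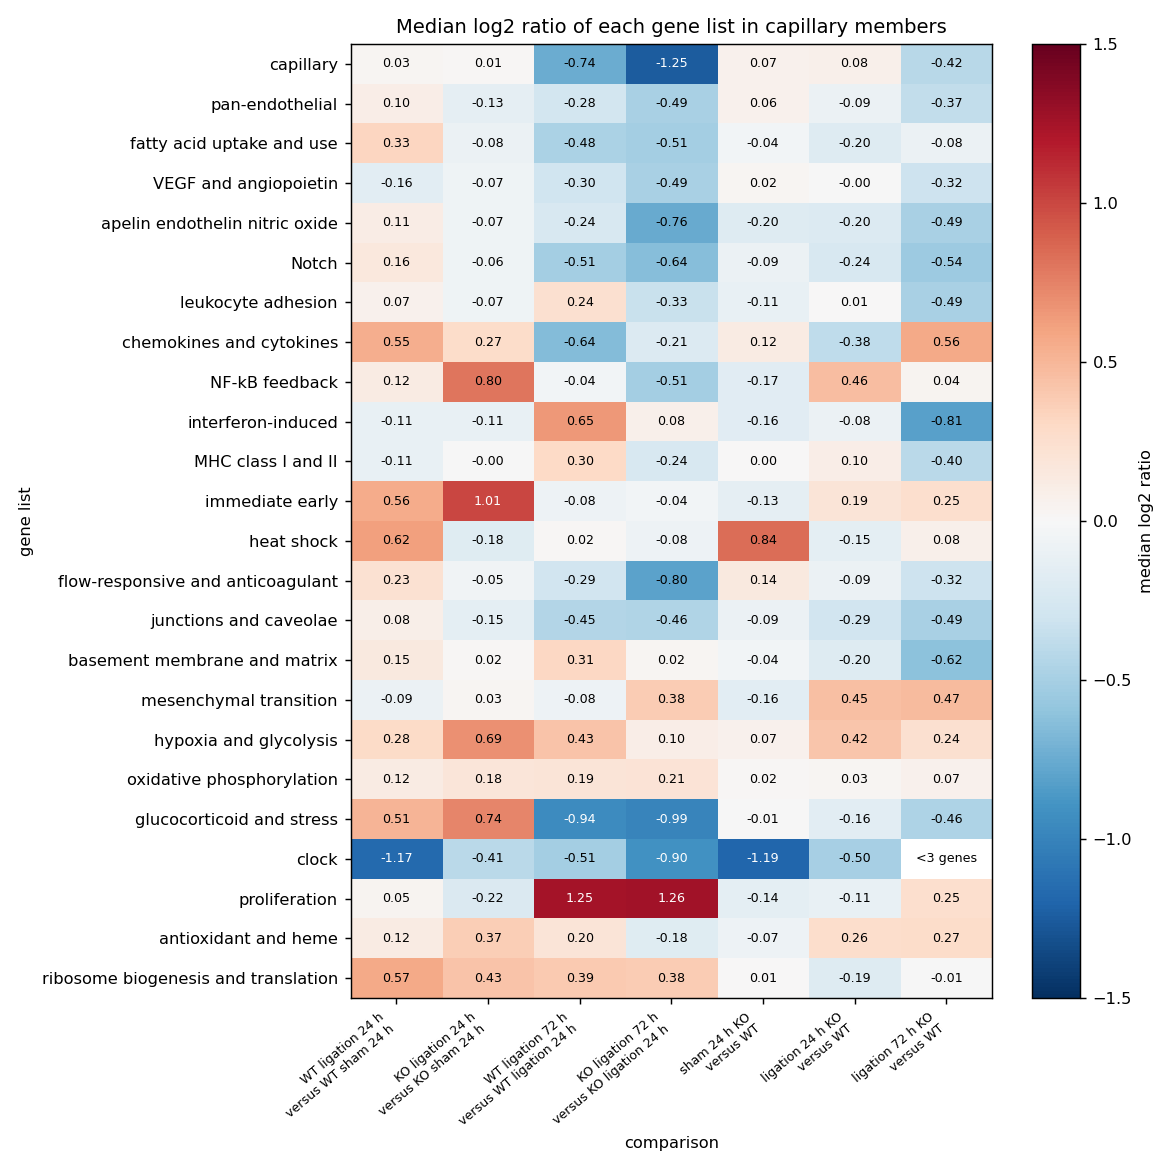
Median log2 ratio of the tested genes of 24 gene lists in the 7 comparisons, as a heat map. Among the lowest medians are those of the clock list in KO against WT sham (-1.19) and in WT at 24 h against sham (-1.17). The lowest is that of the capillary list in KO at 72 h against 24 h (-1.25). The proliferation list at 72 h (1.25 and 1.26) is the highest, and its genes could pass the count minimum through the 72 h library alone.

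Capillary RNA varied from member to member within a library, most so at 72 h in KO. The 11 capillary genes outside the rule gave a mean of 11.5, 13.1, 13.6, 15.0, 10.0 and 7.04 UMIs in cells thinned to 1000, with a Fano factor from 2.39 in WT sham to 4.85 in KO 72 h. Members with at least 10 of these UMIs were 62.1%, 71.2%, 69.0%, 73.9%, 51.1% and 30.2%. The KO 72 h members were thus both the lowest and the most uneven in capillary genes. Of 196 genes with enough UMIs to compare, the median Fano factor was 1.26, and the most variable were the noncoding RNAs Gm42418 (10.1) and Malat1 (9.72) and mitochondrial genes such as mt-Co1 (5.02), whose RNA follows cell quality. Fth1, the ferritin heavy chain, had a median of 4.01, and the actin-binding gene Tmsb4x one of 3.47.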

How the data were processed

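Single-cell 3′ RNA libraries of heart cells other than cardiomyocytes were analysed, 1 for each of 6 groups of genotype and condition. The authors deposited UMI counts, whole numbers for each gene in each cell, from Cell Ranger 6.0.0 (named in the file headers) and on build mm10 per the submitters' processing notes, and any filter they applied after that step is not given in the sources used here. The counts were used as deposited, for 32285 genes.

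Members were chosen by the rule that opens the report, without clustering and without a doublet caller, so doublets were weighed only by leaving out members with at least 2 UMIs over Ptprc, Csf3r, Pdgfra, Rgs5, Myh11, Cd3e and Cd79a, or the 10% of members with the most UMIs. The members and all gene lists were chosen with earlier results of these data known. UMIs of members were summed per library and compared as CPM, and no test was made because each group has 1 library. Intervals for ratios condition on the summed count of 2 Poisson counts, and those for shares are Clopper-Pearson intervals, both at 95% and for counting error only. A level of 0 was bounded at 3 counts. The rule for named genes asked for at least 50 UMIs over the pair, at least 100 CPM and UMIs in at least 5% of members in the higher library, and a level there of at least 0.5 times that over the library's other cells, with genes of the selection rule left out. For 24 h against sham and 72 h against 24 h a named gene had to be past 2-fold in both genotypes, and for KO against WT the 5 highest and 5 lowest of each condition qualified. Genes of the lists and label markers were named as examples besides, and 3 genes that qualified are not reported here.

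Shares of cells with a UMI were compared after thinning each cell to 1000 UMIs. Of the genes, 32158 (99.6%) matched the GENCODE M21 annotation of GRCm38 by identifier, which gave positions only, and promoters came from RefSeq on GRCm38.p6. The library profile was subtracted from the members at the rate given by S100a8 and S100a9. Alternatives covered the UMI minimum, the rule's limits, the mitochondrial limit, doublets, weighting, scaling, the count minimum and free RNA. The scripts were tested on simulated data. Python 3.11.15, numpy 2.4.6, scipy 1.17.1, pandas 2.3.3 and matplotlib 3.10.9 were used.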

Additional observations from a re-analysis of the deposited data

Results flagged for a closer look

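For 4 genes the members of WT and KO hearts differed from their comparison library in opposite directions, each past 2-fold, and the difference between genotypes was not tested. From sham to 24 h, the log2 ratio of the monocyte chemokine gene Ccl7 was 4.29 in WT and -1.40 in KO. Of the WT 24 h UMIs of Ccl7, 85% were in 1 cell, and the WT ratio was 1.65 without it. The heat shock genes Hspa1a and Hspa1b, near-identical copies, were at 1.95 and 3.20 in WT and at -1.27 and -1.16 in KO over the same step. Both were also higher in the KO than in the WT sham members, so the sham base differs. From 24 h to 72 h, S100a4, a calcium-binding protein gene that leukocytes and fibroblasts express, was at -1.45 in WT and 1.76 in KO. S100a4 was at 27.1 CPM in the WT and 290 CPM in the KO members at 72 h, where monocyte and macrophage markers summed to 100 and 2087 CPM, and their part in the difference was not tested.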

How the results depend on the processing

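No paired analysis was possible because each group is 1 library and the labels give no replicate numbers, and for the same reason no replicate could be left out. The share of members among endothelial cells depended on the rule's limits. Asking for at least 2 Gpihbp1 UMIs and 10 over Fabp4, Aqp1 and Cd36 gave 57.9% in WT sham, 62.8% in KO sham and 28.2% in KO 72 h, and dropping the Gpihbp1 limit gave 69.0%, 69.0%, 58.3%, 63.2%, 54.2% and 57.7% in the 6 libraries. A mitochondrial limit of 10% gave 57.7%, 61.0%, 48.2%, 54.1%, 36.7% and 37.8%. In these last 2 settings the WT 72 h library was lowest. Leaving out members with UMIs of other types gave 61.9% in WT sham, 64.0% in KO sham and 53.1% in KO 24 h, a minimum of 2000 UMIs gave 64.5% in KO sham and 53.9% in KO 24 h, and thinning gave 74.2% in KO sham, 71.1% and 70.9% at 24 h and 61.2% in WT 72 h. Counts of genes past 2-fold moved by over 1.5 times mainly with a minimum of 10 UMIs over the pair, which gave 1180 and 1462 at 24 h against sham (392 and 587 with 50 UMIs), 1670 and 1881 at 72 h against 24 h (536 and 565), and 782, 1053 and 1176 for KO against WT in sham, at 24 h and at 72 h (176, 239 and 133), because more sparse genes were compared. Without the 10% of members with the most UMIs, KO against WT gave 106 genes in sham and 152 at 24 h. Without members that held UMIs of other types it gave 144 at 24 h, and with a mean over cells 296 at 72 h. The split of higher and lower genes also moved: from 356 and 231 to 145 and 329 in KO at 24 h against sham and from 67 and 66 to 26 and 106 for KO against WT at 72 h with the library profile subtracted, and to 75 and 45 in the latter with median-of-ratios scaling. In WT at 24 h against sham 186 and 206 became 152 and 247 when mitochondrial, ribosomal and hemoglobin genes were left out of the total. The median of the immediate early list in KO at 24 h against sham was -0.25 in place of 1.01 with the profile subtracted, the only list median of at least 2-fold in size that changed sign under an alternative. Among named genes, without the 10% of members with the most UMIs the 72 h to 24 h log2 ratio was 1.05 for Vim and 1.06 for Selenoh in WT, 1.57 for Col15a1 and -0.999 for Btnl9 in KO, and with a mean over cells it was 1.28 for Stmn1 and -0.994 for Fas in WT. For KO against WT, Nr1d1 in sham was at -0.969 with median-of-ratios scaling, Fkbp4 at 24 h at 0.961 with a mitochondrial limit of 10% and Cyp4b1 at 72 h at -0.982 with the library profile subtracted. Depth limits the 72 h values most: 133 and 139 members leave a CPM of 0 bounded at 4.78 and 7.30.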

Other observations

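Antigen presentation genes of class II, usually a mark of professional presenting cells, were past 2-fold higher in KO than in WT members in sham and again at 72 h: H2-Aa, H2-Ab1, H2-Eb1 and Cd74, 4 of the 13 tested genes of the class I and II list in each case. Over all genes, 1.07% were past 2-fold higher in KO in sham and 2.21% at 72 h. Cd74, the invariant chain, was at 42.6 and 205 CPM in WT and KO sham and at 474 and 1475.5 CPM at 72 h, and H2-Aa at 11.1 and 58.9 and at 55.7 and 416 CPM. In sham a smaller share of KO than of WT members held a Cd74 UMI, 6.84% against 9.77%, or 2.66% against 3.82% in cells thinned to 1000 UMIs, and 1 cell held 20.9% of the KO sham UMIs of Cd74. At 72 h the thinned share was 29.5% of KO members, against 52.7% of the Col1a2-positive fibroblast cells of that library. Whether the KO members themselves expressed Cd74 at 72 h was not tested. The other tested genes of the list, those of class I presentation among them, were not past 2-fold higher in KO, and Tap2 was past 2-fold lower at 72 h. Monocyte and macrophage markers were also higher in the KO members, at 257 and 415 CPM in sham and 100 and 2087 at 72 h, and their part in this was not tested.

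Notch genes had little spread between genotypes in sham, with 9 of 12 genes tested, none past 2-fold and a median of -0.09. From 24 h to 72 h the medians were -0.51 in WT (8 tested, Rbpj past 2-fold lower) and -0.64 in KO (7 tested, Notch4 past 2-fold lower). Over all genes the medians were -0.08 and -0.10, and 7% and 8.19% were past 2-fold lower. Nothing is read from these single genes.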
